A study of Mus musculus with 8 samples.

Results

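The nuclear-encoded genes of the mitochondrial respiratory chain were compared between the cornea and the limbus of the mouse. Members were the rows of the deposited table whose gene symbol begins with Nduf, Uqcr, Cox followed by a digit from 4 to 8, or Atp5, with Cox6a2 left out. There were 87 such genes among 23420 named genes. The tissues came from 8-week-old C57BL/6J wild type mice with no treatment. The limbal rim, the ring of tissue between cornea and conjunctiva in which the epithelial stem cells of the cornea lie, was cut away from the corneal button inside it. Rims and buttons of all eyes were pooled by tissue before RNA was extracted, and total RNA was sequenced after stranded library preparation. The labels number 4 samples per tissue, but the table holds 1 comparison of the tissues, so each tissue counts here as 1 library and no difference below has a replicate check.

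The respiratory chain sits in the inner mitochondrial membrane. Complex I takes electrons from NADH, complex II from succinate, complex III passes them to cytochrome c and complex IV (cytochrome c oxidase) hands them to oxygen, and the proton gradient built on the way drives ATP synthase, also called complex V. Most subunits are made from nuclear genes and imported, a few are made inside the mitochondrion, and some complex IV subunits exist as a form found in most tissues and a second form typical of muscle, lung or testis. In the cornea, respiration supports the ion pumping of the endothelium, and the epithelium also relies on glycolysis.

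Reads on named genes came to 26104317 for the cornea and 21182025 for the limbus. Normalized reads are reads divided by the size factor of the library (1.034 for the cornea and 0.967 for the limbus), and the log2 ratio is the log2 of normalized reads in the cornea over those in the limbus, so that a positive value is higher in the cornea. Its 95% interval is the exact Clopper-Pearson interval of the cornea's share of the reads and covers counting error only. The tissue labels were checked against marker genes. Of 8 corneal epithelium markers 7 were higher in the cornea beyond counting error, and the 7 markers of limbal and conjunctival epithelium past 3 reads in each library all had higher limbal values. Markers of tissue that lies next to the rim were also in the limbus library. The 10 skeletal muscle markers summed to 491 normalized reads in the cornea (1.93 to 396 per gene) and 12845 in the limbus (56.9 to 3231), and no marker was at 0. In bulk tissue, fewer cells of a type and less RNA per cell cannot be told apart.

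More than 3 reads in each library were found for 83 of the 87 members, and these had log2 ratios from -4.33 for Cox8b to 0.72 for Ndufaf4. Among them, 46 had a higher limbal value beyond counting error (55.4%), where the same was true of 33.2% of all 13862 genes that passed this limit, and 21 were higher in the cornea (25.3%), against 40.6% of all genes. The other 16 had intervals that included 0. Most of these differences were small. At least 1.5-fold higher in the limbus were 10 members (12%, against 21.7% of all genes), namely Cox8b, Cox6b2, Cox7a1, Ndufa4l2, Ndufa13, Ndufa7, Uqcr11, Ndufs7, Atp5e and Ndufc1. At least 1.5-fold higher in the cornea were 2 members (2.41%, against 21.5% of all genes), Ndufaf4 and Atp5f1. The middle 50% of the members lay between -0.48 and 0.09, whereas that of all genes lay between -0.46 and 0.51. Most members had mean normalized reads above 1000, whereas only 4300 of all genes reached 1000. Of these 4300 genes, 320 passed 1.5-fold on the limbal side, a smaller share than among the members. On the corneal side 1016 did, a larger share than among the members. Calls beyond counting error numbered 1224 limbal and 2496 corneal in this set.

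The median log2 ratio of the 83 members was -0.13, and that of all genes was 0.05. For the 4300 genes with a mean of 1000 or more it was 0.20, further from the members. All 1003 genes with exons that add up to less than 1500 bases had a median of -0.17, and the 36 members of that length had -0.19. By the length of the principal transcript, and against genes whose mean was 50 or more, the order varied. Under 600 bases the 21 members had -0.50 (-0.41 without the tissue isoforms described below) and all genes -0.07. From 600 to 1000 bases 28 members had -0.15 and all genes -0.13. From 1000 to 2000 bases 26 members had 0.04 and all genes -0.055. From 2000 to 4000 bases 6 members had 0.09 and all genes 0.11. From 4000 bases upward only 2 members were found, with -0.39 against 0.27. The split of calls depended on how the libraries were scaled. The share of calls that lay on the corneal side was 31.3% with the size factors, 29.9% with a trimmed mean of M-values, 20.6% after centring on the median of all genes with a mean of at least 50 and 8.96% with total reads, and over all genes it was 55.0%, 53.8%, 47.4% and 39.7%. Total reads shift every log2 ratio by -0.21 and centring by -0.10, so that the distance between the medians of members and all genes, -0.19, is the same under each. All 3 alternatives moved ratios toward the limbus, so a limbal call could not be lost under them but a corneal one could. With total reads, 6 of the 21 members higher in the cornea kept that call, namely Ndufv2, Ndufs4, Ndufaf4, Atp5c1, Atp5f1 and Atp5l, while 14 had an interval that included 0 and 1, Atp5g3, was higher in the limbus. After centring, 14 kept it. Near-identical transcripts of other annotated genes, with which reads may be shared, were found for 24 of the 87 members. Without these members 12 of the 21 corneal calls and 35 of the 46 limbal calls remained. Counts of calls in each complex below are to be read against the shares of all genes, which were 40.6% on the corneal and 33.2% on the limbal side with the size factors and 29.7% and 45.1% with total reads.

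**Figure D1:**
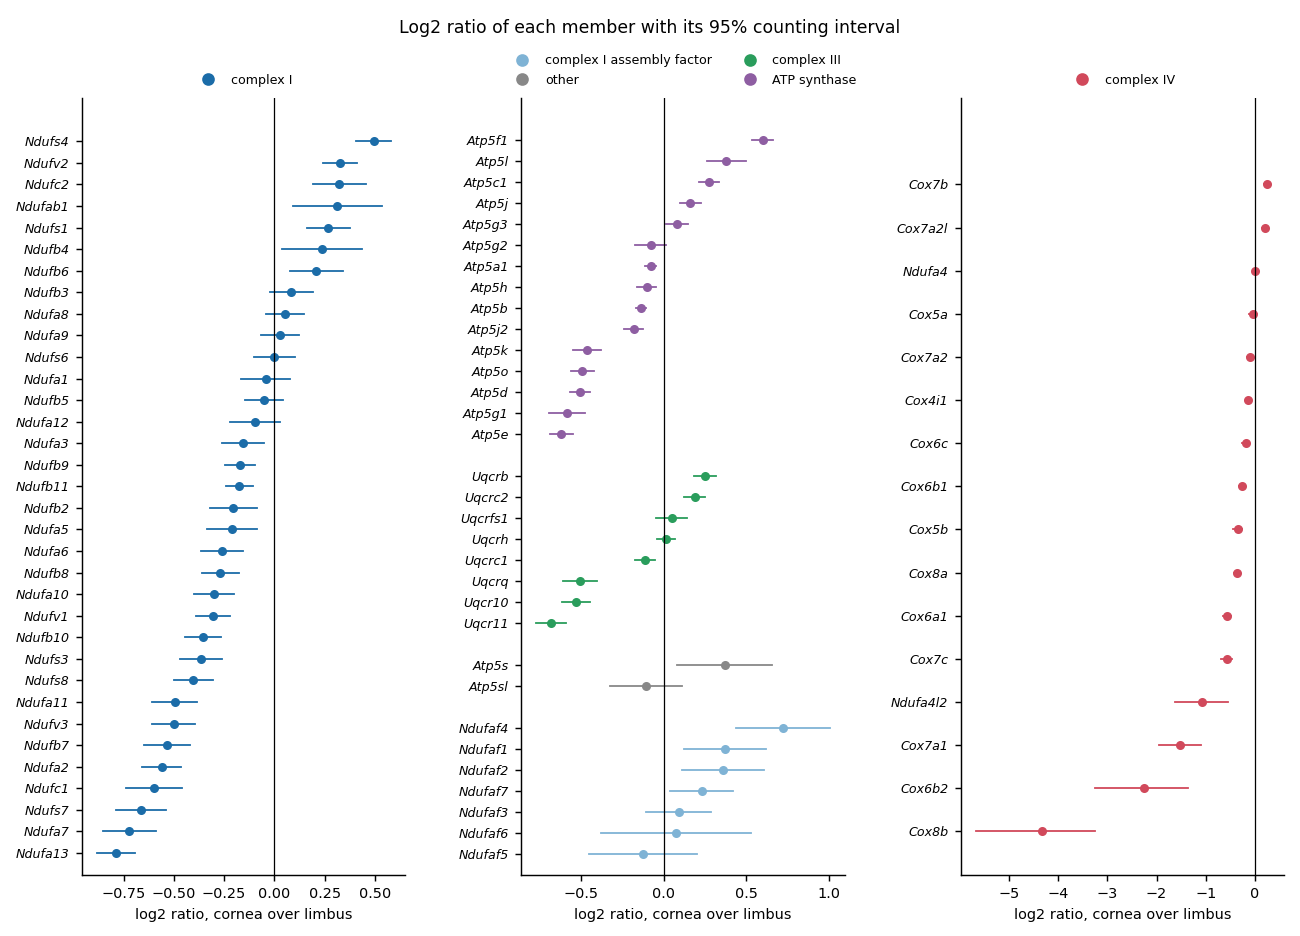
Log2 ratio of cornea over limbus (x axis) of 82 of the 83 members past 3 reads in each library, grouped by complex, with 1 library per tissue. Points are ratios and bars are 95% intervals from counting error, and the x axes differ between panels. All members drawn but the 4 complex IV isoforms at the bottom of the right panel lie between -0.79 and 0.72.

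Complex I is the largest enzyme of the chain, and its 35 measured subunits had a median log2 ratio of -0.17, of which 21 (60%) leaned to the limbus beyond counting error, 7 (20%) to the cornea and 7 to neither. With total reads 28 (80%) leaned to the limbus and 2 (5.71%) to the cornea. The 7 core subunits that the nucleus encodes carry the flavin and iron-sulfur clusters or form the site at which ubiquinone is reduced. In the ubiquinone-reducing module, Ndufs7, Ndufs8 and Ndufs3 were higher in the limbus. Ndufs7 had 857 corneal and 1358 limbal normalized reads, a log2 ratio of -0.66 (-0.79 to -0.54), and Ndufs8 had 1500 and 1985, a log2 ratio of -0.40. Ndufs3, which has 1 near-identical annotated copy, had 1326 and 1706, a log2 ratio of -0.36. In the NADH-oxidizing module, Ndufv2 had 2587 corneal and 2063 limbal normalized reads (0.33, 0.24 to 0.41) and Ndufs1, the subunit with the most iron-sulfur clusters, had 1626 and 1350 (0.27, 0.16 to 0.37). With total reads Ndufv2 kept its call at 0.12, and Ndufs1 had 0.06 with an interval from -0.04 to 0.17. Ndufv1, which binds the flavin and NADH, lay on the other side of 0, with 2065 and 2555 (-0.31, -0.39 to -0.22). Core subunits of the same module thus differed in sign in these libraries.

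Of the 28 measured accessory subunits of complex I, which surround the core, 16 (57.1%) leaned to the limbus beyond counting error and 5 (17.9%) to the cornea, and with total reads 23 (82.1%) and 1 (3.57%). Ndufa13, known also as a protein of interferon and retinoid induced cell death (chr8:69894180-69902558), had the lowest ratio, with 1422 corneal and 2458 limbal normalized reads (-0.79, -0.88 to -0.70). Ndufa7 followed with 765 and 1261 (-0.72, -0.85 to -0.59), and Ndufc1, Ndufa2, Ndufb7, Ndufv3 and Ndufa11 had log2 ratios from -0.60 to -0.50. Ndufb10, Ndufa10, Ndufb8, Ndufa6, Ndufa5, Ndufb2, Ndufb11, Ndufb9 and Ndufa3 were likewise limbal, with log2 ratios from -0.35 to -0.16. At the other end stood Ndufs4, a subunit whose loss gives a mouse model of Leigh syndrome, with 2696 corneal and 1916 limbal normalized reads (0.49, 0.41 to 0.58), followed by Ndufc2 and the acyl carrier protein Ndufab1 at 0.32 and 0.31, which had 0.12 and 0.11 with total reads and intervals that then included 0. Ndufb4 and Ndufb6 had 0.24 and 0.21, with 0.03 and 0.0025 and the same loss with total reads. Ndufab1 has 2 near-identical annotated copies, and Ndufb4 and Ndufb11 have 1 each. Ndufs5 is listed at 0 in the table; the annotation holds 1 other gene with a near-identical transcript.

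The 7 assembly factors of complex I, which help to build the enzyme and then leave it, had a median log2 ratio of 0.23, with 4 higher in the cornea beyond counting error (57.1%, against 40.6% of all genes), none in the limbus and 3 on neither side. With total reads the median was 0.02, with 1 on each side. Ndufaf4 (chr4:24898083-24905001) had the highest ratio of all members, with 276 corneal and 167 limbal normalized reads (0.72, 0.44 to 1.01). Ndufaf1 and Ndufaf2 had log2 ratios of 0.37 and 0.36, and Ndufaf7, which has near-identical sequence in 8 other annotated genes, had 0.23. The factors have few reads, at 153 to 502 normalized reads in the cornea, except for Ndufaf6 at 87.1, and their intervals are correspondingly wide.

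Complex III had 8 measured genes with a median log2 ratio of -0.05. Uqcrfs1, the Rieske iron-sulfur protein, had 1840 corneal and 1779 limbal normalized reads (0.05, -0.05 to 0.14), and the core proteins Uqcrc1 and Uqcrc2 had log2 ratios of -0.11 and 0.19. With total reads these 3 had -0.16, -0.32 and -0.02, and only the interval of Uqcrc2 included 0. The small accessory subunits spread further. Uqcr11 had 1582 corneal and 2532 limbal normalized reads (-0.68, -0.77 to -0.59), Uqcr10 had 1816 and 2620 (-0.53, -0.62 to -0.44) and Uqcrq had -0.50. By contrast Uqcrb, near the quinone site, had 4084 and 3439 (0.25, 0.18 to 0.31), which became 0.04 with total reads (-0.02 to 0.11), and Uqcrh, the hinge protein that faces cytochrome c, had 0.02. Near-identical annotated copies number 3 for Uqcrb, 2 for Uqcr11 and 1 for Uqcr10. Of the 8 genes 2 (25%) were higher in the cornea beyond counting error and 4 (50%) in the limbus, and with total reads 0 and 6 (75%).

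In complex IV, the 11 subunits found in most tissues had a median log2 ratio of -0.19, 8 of them (72.7%) leaning to the limbus beyond counting error and 1 (9.09%), Cox7b, to the cornea. With total reads 10 (90.9%) leaned to the limbus and 0 to the cornea. Cox4i1, which regulates the enzyme by binding ATP, had 6772 corneal and 7424 limbal normalized reads (-0.13, -0.18 to -0.08). Cox5a had 2638 and 2723, with an interval that included 0, and Cox5b, which binds zinc, had 1779 and 2274 (-0.35, -0.44 to -0.26). The lowest were Cox7c with 1201 and 1791 (-0.58, -0.68 to -0.47) and Cox6a1 with 2273 and 3374 (-0.57, -0.65 to -0.49). Cox8a, Cox6b1, Cox6c and Cox7a2 had log2 ratios of -0.36, -0.27, -0.19 and -0.10. Cox7b had 5111 corneal and 4329 limbal normalized reads (0.24, 0.18 to 0.30), which became 0.03 with total reads (-0.03 to 0.09). Cox7b and Cox6c have 2 near-identical annotated copies each, and Cox5b, Cox7c and Cox7a2l have 1. Ndufa4, first described as a complex I protein and now counted with complex IV, had 13372 and 13279 (0.01, -0.02 to 0.04) and a limbal call with total reads (-0.20). Cox7a2l, a factor that joins complexes III and IV into supercomplexes, had 4725 and 4103 (0.20, 0.14 to 0.26), which turned to -0.0022 with total reads.

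The tissue isoforms of complex IV were the members that differed most. Cox8b, the heart and skeletal muscle form of subunit VIII (GRCm38, chr7:140898945-140900446), had 7 corneal and 132 limbal reads, or 6.77 and 136 normalized reads, a 20.2-fold higher level in the limbus (log2 ratio -4.33, -5.68 to -3.25). Cox7a1, the heart and skeletal muscle form of subunit VIIa (chr7:30184144-30186078), had 64 and 172 reads, or 61.9 and 178 normalized reads (-1.52, -1.96 to -1.10). Cox6b2, a form known from testis (chr7:4751792-4753094), had 13 and 58 reads (-2.25, -3.25 to -1.37), and Ndufa4l2, a hypoxia-responsive relative of Ndufa4 found in pericytes and smooth muscle (chr10:127514967-127517154), had 45 and 89 (-1.08, -1.63 to -0.55). Cox4i2, the form of subunit IV known from lung and vascular smooth muscle (chr2:152754173-152765037), had 1 corneal and 48 limbal reads, a ratio of 51.3-fold with an interval from 8.78-fold to 2068-fold. All 5 detected isoforms were lower in the cornea beyond counting error. Cox7b2 and Cox8c, known from testis, are listed at 0. Ndufa4l2, like Ndufa13 and Atp5f1 elsewhere in the chain, is overlapped by a gene on the opposite strand, and whether counting used strand is not stated in the sources used here.

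Within each library the isoforms were a small part of their pair, which needs no scaling between libraries. Cox8b took 0.195% of the reads of Cox8a and Cox8b in the cornea (0.0785% to 0.402%) and 2.98% in the limbus (2.50% to 3.52%). The share of Cox7a1 among Cox7a1 and Cox7a2 reads was 1.65% (1.28% to 2.11%) and 4.31% (3.70% to 4.99%). For Cox4i2 the shares were 0.0143% and 0.664%, for Cox6b2 0.301% and 1.18%, and for Ndufa4l2 0.324% and 0.688%, and in no pair did the intervals of the libraries overlap. Per exonic base the muscle forms weighed more, and Cox8b made up 0.335% and 5.01% of its pair and Cox7a1 2.88% and 7.37%. Markers of muscle and vessel, and of most other tissues around the epithelium, had most of their genes on the same side as these isoforms. The 8 skeletal muscle markers past 3 reads in each library were all on the limbal side, with a median log2 ratio of -6.48, and so were all 4 such markers of smooth muscle and pericytes (median -4.75). The latter list summed to 318 corneal and 2760 limbal normalized reads, and its marker Des was at 0 in the cornea and at 315 in the limbus. Past the same limit, all 4 blood vessel markers (median -4.79), 5 photoreceptor (-3.16), 3 Schwann cell (-2.65), 5 melanocyte (-2.52), 4 leukocyte (-2.05) and 5 corneal endothelium markers (-1.66) also leaned to the limbus with intervals that excluded 0, whereas 3 of the 6 keratocyte markers did. Of the ciliary epithelium and iris list only Gja1, at 1.39, and Best2, at -0.79 with an interval that included 0, passed the limit. Their part in the isoform values was not tested. Without the isoforms the median of the remaining 79 members was -0.11.

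**Figure D2:**
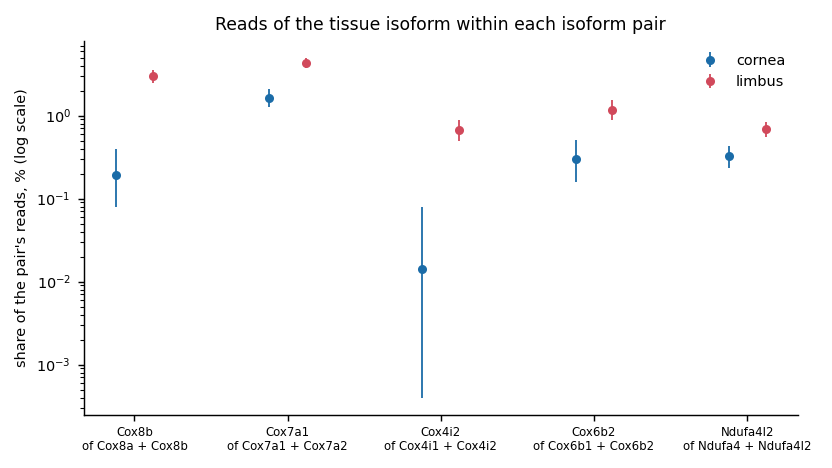
Share of the reads of an isoform pair (y axis, percent, log scale) that fell on the tissue isoform, in the cornea and the limbus library. Points are shares and bars exact 95% binomial intervals for counting error. For all 5 pairs the share is higher in the limbus, from 0.324% against 0.688% for Ndufa4l2 to 0.0143% against 0.664% for Cox4i2.

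The promoters of the muscle forms and of their partners found in most tissues also differ in sequence. The 250 bases before the RefSeq start of Cox8a (chr19:7217617-7217866, minus strand), Cox8b (chr7:140900447-140900696, minus strand), Cox7a2 (chr9:79759854-79760103, minus strand) and Cox7a1 (chr7:30183921-30184170, plus strand) of GRCm38.p6 are given because these are the heart and skeletal muscle forms and their partners. They run 5′ to 3′ on the strand of the gene, and capitals mark each CG dinucleotide.

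Cox8a: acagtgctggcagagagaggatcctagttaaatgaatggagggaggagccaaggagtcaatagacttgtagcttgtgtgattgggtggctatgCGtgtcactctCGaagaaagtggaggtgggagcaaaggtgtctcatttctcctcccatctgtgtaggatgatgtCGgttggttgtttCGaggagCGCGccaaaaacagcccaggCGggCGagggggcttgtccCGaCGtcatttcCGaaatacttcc

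Cox8b: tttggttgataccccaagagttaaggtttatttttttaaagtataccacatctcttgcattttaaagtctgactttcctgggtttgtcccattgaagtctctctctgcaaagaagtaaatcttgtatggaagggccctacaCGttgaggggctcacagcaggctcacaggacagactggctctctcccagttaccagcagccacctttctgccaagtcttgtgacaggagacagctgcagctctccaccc

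Cox7a2: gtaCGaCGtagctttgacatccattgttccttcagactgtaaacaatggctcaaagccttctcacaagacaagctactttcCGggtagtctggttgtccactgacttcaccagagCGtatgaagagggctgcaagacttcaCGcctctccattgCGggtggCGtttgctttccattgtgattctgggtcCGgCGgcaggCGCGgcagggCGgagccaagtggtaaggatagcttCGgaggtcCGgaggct

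Cox7a1: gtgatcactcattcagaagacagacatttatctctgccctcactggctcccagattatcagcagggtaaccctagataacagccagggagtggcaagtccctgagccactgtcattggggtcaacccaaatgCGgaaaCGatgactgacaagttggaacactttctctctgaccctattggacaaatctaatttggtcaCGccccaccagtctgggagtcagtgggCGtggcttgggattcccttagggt

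Cox8b had 1 CG in this stretch and Cox8a had 11, and Cox7a1 had 4 where Cox7a2 had 14. Promoter sequence was found by symbol for 70 of the 87 members. Over these the count ran from 1 to 35 with a median of 14, above the median of 6 over all 27025 genes with a promoter in the table, and Cox8b had the lowest count while Cox7a1 shared the next lowest with Ndufc2. The median was 17.5 for the 16 of them that were higher in the cornea 14 for the 38 that were higher in the limbus and 18 for the 14 on neither side. Letters of 6 motifs were then searched on both strands of the full windows, which run to 50 bases after the start. GCATGCGC, the core of the site of NRF1, a factor known to drive respiratory genes, was in 11 of the 70 members (15.7%) and in 3.05% of all genes. AAGATGGCG, the YY1 letters, was in 7 (10%) against 1.64%, AAGGTCA, bound by the estrogen-related receptors, in 7 (10%) against 5.38%, and CCGGAAGT, bound by GABPA and other ETS factors, in 5 (7.14%) against 4.31%. The E-box CACGTG was in 7.14% against 8.09% and CCAAT in 42.9% against 41.1%. NRF1 letters were held by 2 of 16 members higher in the cornea and by 6 of 38 higher in the limbus. Cox8b, Cox7a1 and Cox7a2 held none of NRF1, YY1, ERR or ETS letters, and Cox8a held those of ETS.

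ATP synthase had 15 measured genes with a median log2 ratio of -0.10, 9 of them (60%) leaning to the limbus beyond counting error and 5 (33.3%) to the cornea, and with total reads 11 (73.3%) and 3 (20%). Atp5b, the catalytic beta subunit of the head, had 17425 corneal and 19180 limbal normalized reads (-0.14, -0.17 to -0.11), and Atp5a1, the alpha subunit, had 12363 and 13055 (-0.08, -0.11 to -0.04). Both differences passed counting error, at 1.10-fold and 1.06-fold. The subunits of the central stalk that turns inside the head did not move together. Atp5c1, the gamma subunit, had 5396 corneal and 4462 limbal normalized reads (0.27, 0.22 to 0.33), and kept its call with total reads at 0.07, whereas Atp5d and Atp5e, delta and epsilon, had 3888 and 5521 (-0.51) and 2718 and 4167 (-0.62, -0.69 to -0.55). In the peripheral stalk, which holds the head still, Atp5f1 (chr3:105942698-105960099) had 5122 and 3382 (0.60, 0.54 to 0.66) and Atp5o had 2843 and 3996 (-0.49, -0.56 to -0.42). Atp5j and Atp5h lay at 0.16 and -0.10, the former turning to -0.04 with total reads. Near-identical annotated copies number 4 for Atp5h, 2 for Atp5c1 and 1 each for Atp5f1 and Atp5o.

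The 3 genes Atp5g1, Atp5g2 and Atp5g3 encode the same mature protein of the c ring, the rotor in the membrane, and differ in the peptide that targets it to mitochondria. Atp5g1 had 1129 corneal and 1690 limbal normalized reads (-0.58, -0.69 to -0.47), Atp5g2 had 1779 and 1877, and Atp5g3 had 3864 and 3654 (0.08, 0.01 to 0.15), which turned to -0.02 after centring and -0.13 with total reads. Atp5g1 took 16.7% of the reads of the 3 genes in the cornea (15.8% to 17.6%) and 23.4% in the limbus (22.4% to 24.4%), and Atp5g3 took 57.1% (55.9% to 58.2%) and 50.6% (49.4% to 51.8%). The share of Atp5g2 was 26.3% and 26.0%. Of the small membrane subunits, Atp5k and Atp5j2 were higher in the limbus at -0.46 and -0.18, and Atp5l, which has 9 near-identical annotated copies, was at 0.38. Atp5k and Atp5g1 have 1 such copy each. Atp5s, a coupling factor, had 235 corneal and 182 limbal normalized reads (0.37, 0.08 to 0.66), a call lost with total reads (0.16), and Atp5sl, which despite its symbol takes part in complex I assembly, had an interval that included 0.

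Levels were compared between genes per 1000 exonic bases. Ndufa4 had the highest level in both libraries, with 9683 normalized reads per 1000 exonic bases in the cornea and 9616 in the limbus. Cox6b1 and Cox8a came next, with 5889 and 5596 in the cornea and 7087 and 7183 in the limbus. The 11 complex IV subunits found in most tissues had a median level of 3902 in the cornea and 4179 in the limbus. The medians of complex III were 2097 and 2720, those of ATP synthase 1548 and 2027, those of complex I 948 and 961 and those of its assembly factors 105 and 93.0. The isoforms reached at most 116 in the cornea and 379 in the limbus. With the length of the principal transcript in place of all exons, Ndufa4 still came first in both libraries but Uqcrh and Atp5b followed, so the order below the first place depends on the gene model.

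**Figure D3:**
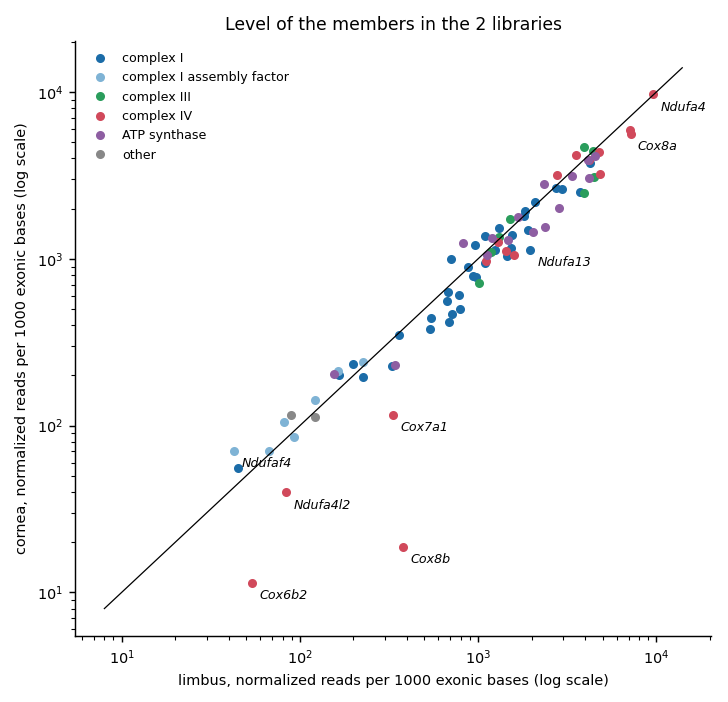
Normalized reads per 1000 exonic bases of the 83 members in the limbus (x axis, log scale) and the cornea (y axis, log scale), coloured by complex, with the line of equal level. Points lie along the line over the range from 42.9 to 9616 in the limbus, and Cox8b, Cox6b2, Cox7a1 and Ndufa4l2 lie below it.

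Members that leaned to the limbus had transcripts richer in G and C. Across the 70 subunits that are not tissue isoforms, the log2 ratio fell with the GC content of the principal transcript, with Pearson's r = -0.60 and Spearman's rho = -0.58, given as a description across genes of the same pair of libraries. The 35 subunits above the median GC content had a median log2 ratio of -0.35, with 29 that leaned to the limbus beyond counting error and 2 to the cornea. The 35 at or below it had a median of 0.02, 13 leaning to the limbus and 14 to the cornea. Over all genes, whatever their GC content, the shares of calls were 33.2% on the limbal and 40.6% on the corneal side. The correlation was also negative over all 11731 genes with a mean of at least 50 and a known GC content. There r was -0.38 and rho was -0.57. In every range of GC content the median of the members lay below that of all genes. From 46% to 50% it was 0.04 over 20 members and 0.26 over all genes, and from 50% to 54% it was -0.17 over 22 members and -0.01. From 54% to 58%, with the isoforms left out, it was -0.27 over 15 members and -0.19. Under 42% only 4 members were found, with 0.35 against 0.88, and from 58% upward 9 with -0.54 against -0.36. Members with a principal transcript under 1000 bases had a median of -0.21 (49 members) and longer ones -0.01 (34 members). All 684 genes with a mean of at least 50 and a principal transcript under 1000 bases had a median of -0.12. Whether GC content or length has a part in the ratios was not tested.

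**Figure D4:**
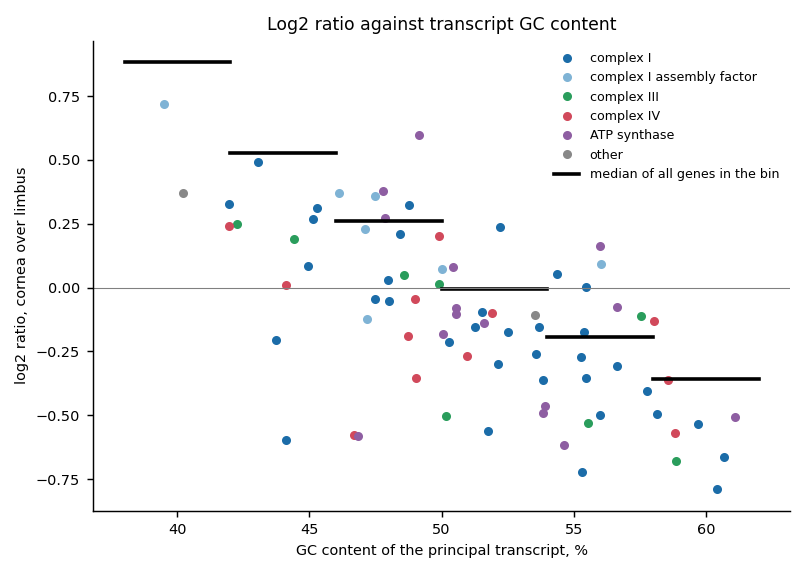
Log2 ratio of cornea over limbus (y axis) against GC content of the principal transcript (x axis, percent) for 79 members, tissue isoforms left out, coloured by complex, with black bars for the median of all genes with a mean of at least 50 in each GC range. Members and all genes run from above 0 at low GC content to below 0 at high GC content, from 0.35 to -0.54 for the medians of the members and from 0.88 to -0.36 for all genes.

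Other mitochondrial genes were described by lists. Their counts of calls stand beside the shares of all genes, which were 40.6% higher in the cornea and 33.2% in the limbus with the size factors (median 0.05), and 29.7% and 45.1% with total reads (median -0.15). Complex II, which feeds electrons from succinate, had 6 measured genes, its assembly factors Sdhaf1 (-0.34) and Sdhaf2 (0.16) included. Of these 6 genes 4 were higher in the cornea and 2 in the limbus. Sdha, its flavoprotein, had 4019 corneal and 3079 limbal reads (0.29, 0.22 to 0.36). The median of complex II was 0.18 and turned to -0.03 with total reads, with 1 gene higher in the cornea and 2 in the limbus. The 5 subunits and related genes outside the prefixes used had a median of -0.07. Among them cytochrome c (Cycs) had 1349 and 921 reads (0.45, 0.33 to 0.58), and Cyc1, the heme subunit of complex III, had 2033 and 2292 (-0.27, -0.36 to -0.18). Usmg5 and 2010107E04Rik, small subunits of ATP synthase, had 0.42 and -0.14, and its inhibitor Atpif1 had -0.07. Of 32 measured assembly factors named neither Nduf nor Sdhaf, 18 were higher in the cornea (56.2%) and 8 in the limbus (25%). Their median was 0.22. The highest were Coa5 at 1.11 and Lyrm7 at 0.90, and the lowest beyond counting error were Cox19 at -0.65 and Cox14 at -0.56. With total reads the median was 0.01, with 12 (37.5%) and 11 (34.4%). Of the 10 carriers and porins, which pass adenine nucleotides, phosphate and pyruvate through the membranes, 8 were higher in the cornea and none in the limbus (median 0.28, with total reads 0.07 and 4 and 3 genes).

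The citrate cycle and import lists lay near all genes, at a distance of 0.05 and 0.03 between the medians under each scaling. The citrate cycle list had 9 of 19 genes on the corneal side (47.4%) and 7 on the limbal side (36.8%), and with total reads 6 (31.6%) and 10 (52.6%). The import list had 10 of 22 (45.5%) and 6 (27.3%), and with total reads 6 (27.3%) and 11 (50%), and its median of 0.08 was -0.02 after centring and -0.12 with total reads. Among regulators of respiratory genes, 7 of 19 measured were higher in the cornea (36.8%) and 4 in the limbus (21.1%), with a median of -0.08. The split was 6 and 7 after centring (median -0.18) and 5 and 9 with total reads (26.3% and 47.4%, median -0.28). Yy1 had 1733 corneal and 711 limbal reads (1.19), Gabpa 1542 and 804 (0.84) and Tfam, the mitochondrial transcription factor, 903 and 607 (0.48). Nrf1 had 656 and 644 with an interval that included 0. Ppargc1a, the coactivator of mitochondrial biogenesis, had 29 and 48 reads (-0.82, -1.54 to -0.13), and the estrogen-related receptors Esrra and Esrrb had 1568 and 1799 (-0.29) and 5 and 51 reads (-3.45, -5.13 to -2.13), the lowest ratio of the list. The 13 subunits made inside the mitochondrion were not analysed here.

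**Figure D5:**
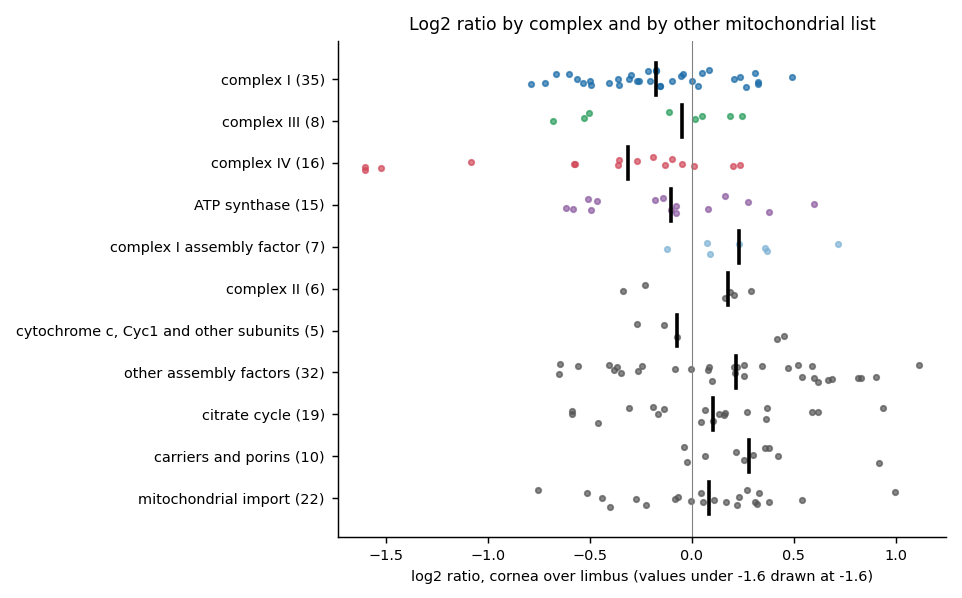
Log2 ratio of cornea over limbus (x axis) of single genes, by complex for the members and by list for other mitochondrial genes, with the number of measured genes in parentheses and a black bar at each median. The 4 complexes have medians from -0.31 to -0.05, that of complex IV being -0.31 with its 4 tissue isoforms and -0.19 over its 11 subunits found in most tissues. The list with cytochrome c is at -0.07, the regulators are not drawn, and complex I assembly factors, complex II, other assembly factors, the citrate cycle, carriers and import have medians from 0.08 to 0.28 with the size factors, those of complex II, the citrate cycle and import lying below 0 with total reads.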

How the data were processed

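Rims and buttons were pooled and sequenced as stranded total RNA, and per the paper's methods reads were trimmed, mapped to GRCm38 (mm10) and scaled with a trimmed mean of M-values. In their file, the authors deposited 1 table with, per gene, a mean normalized signal (reads divided by size factors), a log2 fold change and its standard error on the log2 scale, and p-values, which were not used or compared. The table holds no column of a single sample, so it was treated as 1 library per tissue, where the design had allowed for values per sample. It has 40904 rows, of which 17484 name no gene and hold no value, and 5978 named genes have a mean of 0. Whether counting used strand is not stated, and 31 members overlap another gene. Nearly all accessions in the table belong to another gene than the symbol beside them, so genes were matched by symbol.

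For each of the 17442 other means, at least 1 pair of whole read numbers, 1 per library, gives the mean. For 6143 genes only 1 pair of reads gives the mean, and for the others the pair was taken that the deposited fold change and standard error point to under a shrinkage model with a prior SD of 1.44, which it met within 0.5 reads for 17437 genes. For the members the pair was met within 0.0156 reads, and the next best pair missed by at least 90.3 times as much. Reads are therefore derived values and not a count table. On simulated data all 17047 pairs were found. Of 200 genes changed, 100 by 0.5 and 100 by 1 on the log2 scale, all had the right direction.

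A member was called where its interval excluded 0, or at 1.5-fold. Ratios are given for more than 3 reads in both libraries, and fewer reads were given with their interval. No test across replicates could be made. Positions, exons and GC content are from GENCODE for GRCm38, near-identical copies are transcripts of other genes with at least 95% identity over 150 bases (blastn 2.17.0), and promoters are from RefSeq (GRCm38.p6). Members named in the text are core subunits, isoforms and their partners, the 2 highest and 2 lowest per complex and all on the limbal side, and the other members were named after their values were seen, to complete a complex. The members and lists were chosen with earlier results of these data known. Alternatives were total reads, a trimmed mean of M-values, centring, a pseudocount of 1, means of at least 10 and 50, and subsets of members, of which the copies and isoforms subsets were added after the values were seen. Python 3.11.15 with numpy 2.4.6 and scipy 1.17.1 was used. The values of 1 member are counted in the summaries and not reported here on their own.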

Additional observations from a re-analysis of the deposited data

How the results depend on the processing

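No paired analysis was possible because the table holds no value of a numbered sample, and for the same reason no replicate could be left out. Each alternative scaling shifts all ratios toward the limbus and so could not turn the negative medians. The median of the members was -0.34 with total reads and -0.24 after centring, and those of complexes I, III, IV (tissue isoforms included) and V were -0.38, -0.25, -0.52 and -0.31 with total reads and -0.28, -0.15, -0.41 and -0.21 after centring. Counting 21 members higher in the cornea and 46 in the limbus as the base, total reads gave 6 in the cornea, leaving out 31 members with an overlapping gene gave 12 and 30, and leaving out those with near-identical copies, chosen after seeing the data, gave 12 in the cornea and 35 in the limbus, the last 2 settings with fewer members to count. The 2 members at least 1.5-fold higher in the cornea became 0 with total reads and 1 with the trimmed mean, centring, subunits only, without overlapping genes and without copies. The 10 at least 1.5-fold higher in the limbus became 23 with total reads, 21 after centring and 6 without the tissue isoforms. Total reads turned the sign of 4 members called in the cornea, Uqcrc2 to -0.017, Cox7a2l to -0.0022, Atp5j to -0.045 and Atp5g3 to -0.13, of which only Atp5g3 then had an interval below 0, and centring turned Atp5g3 to -0.022. A pseudocount of 1 moved no member outside its interval. Depth limits the isoforms most, since the median half-width of the interval is 0.74 for the 4 past the read limit. It is 0.25 both for the assembly factors and for Atp5s and Atp5sl, and 0.09 over all members.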
